A study of Vitis vinifera with 60 samples.

Results

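Among the genes measured in berries of 5 white grapevine cultivars, 80 of 29287 had a dip at the stage when berries begin to touch: their RNA was lower there than in younger, pea-sized berries and lower than in older, soft berries. They were chosen on log2(FPKM + 1), where FPKM are fragment numbers divided by transcript length and by the total mapped. The values of the 5 cultivars were averaged at each stage, and the mean had to be at least 1 higher (2-fold on that scale) at Pea than at Touch, and at least 1 higher at Soft than at Touch. The rule met 81 genes, and 1 of them was left out because a value of exactly 0 at a stage stood beside a median of 1000 FPKM or more in the other cultivars. The drops on both sides of Touch therefore chose the genes, and their size is given below as a description.

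Messenger RNA was measured through development in the pericarp, taken as whole berries with the seeds removed, of the cultivars Garganega, Glera, Moscato bianco, Passerina and Vermentino of Vitis vinifera. All vines stood in one experimental vineyard in the 2011 season, so all groups share site and year. Berries were sampled as Pea (pea-sized), Touch (starting to touch each other), Soft (softened) and Harv (ready for harvest), which makes 20 groups of 3 libraries. The deposited table holds the authors' mean FPKM of each group, so the spread between libraries and the sequencing depth are unknown, and every SD below runs over the 5 cultivars at a stage.

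Grape berries grow in an early and a late phase, separated by a lag. Pea-sized berries are in the early phase of cell division and expansion and store organic acids and tannins. Berries that begin to touch close the bunch and approach the lag, and softening marks the onset of ripening, when sugars rise and acids fall until harvest. The files give grapevine gene identifiers without names, and 0 of them matched the 29591 annotated genes at hand. The genes are therefore given by identifier, with no function, and marker genes of the pericarp could not be looked up.

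The dip was a rare course. On the deposited scale, most genes moved little between Pea and Touch and were lower at Soft. Over the 20833 genes that reached 1 FPKM somewhere in the table, which include all 80, the median change was 0.02 from Pea to Touch and -0.31 from Touch to Soft on the log2 scale. With columns scaled to equal medians it was 0.04 and 0.07, so the direction for all genes after Touch depends on the scale. In the 80 genes the median was -1.54 from Pea to Touch, with a range of -5.78 to -1.001, and 2.03 from Touch to Soft, with a range of 1.01 to 8.22. In the 104 genes chosen with equal medians it was -1.45 and 1.91. The rise to Soft was thus the larger side in the median. Touch was the lowest of the 4 stage means in 70 of the 80 genes. In the remaining 10 the mean at Harv was lower still. In whole tissue, fewer cells of a type and less RNA per cell cannot be told apart.

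**Figure D1:**
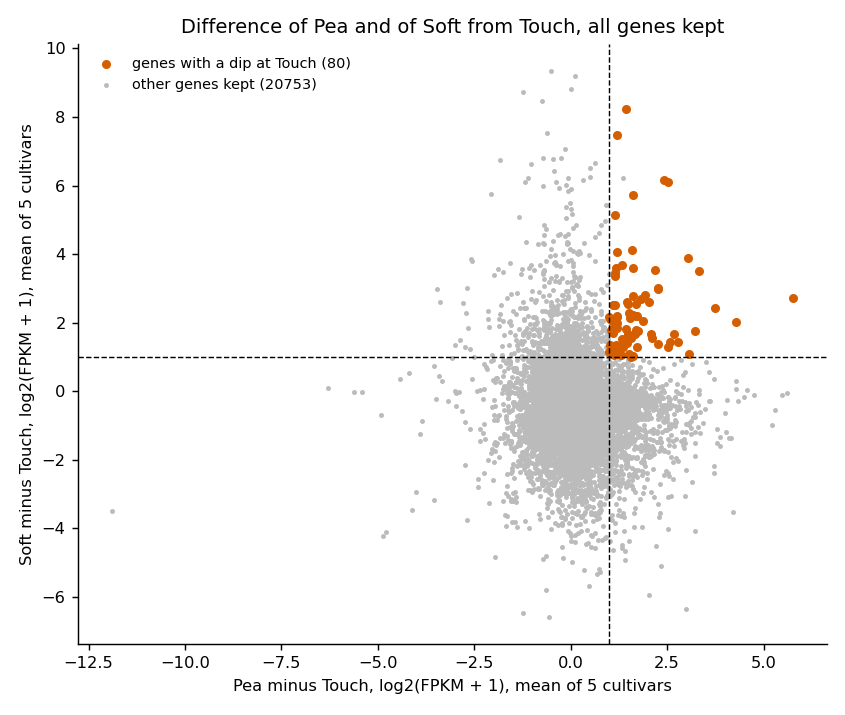
Each point is 1 of the 20833 genes with at least 1 FPKM in a column; the x axis is Pea minus Touch and the y axis is Soft minus Touch, both as differences of log2(FPKM + 1) averaged over 5 cultivars, and dashed lines mark the limit of 1. The 80 genes with the dip lie beyond both lines, more of them spread upward (to 8.22) than to the right (to 5.78), and the 1 grey point beyond both lines is the gene left out for its value at 0.

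As a description, and not as a test of drops that the rule itself required, adjacent stages were fitted with limma over all 20833 genes. A gene is called where the Benjamini-Hochberg adjusted p is under 0.05 and the change is at least 2-fold. Touch was called below Pea in 62 of the 80 genes, against 5.77% of all genes tested, and above Pea in 0, against 2.14%. Soft was called above Touch in 70, against 3.59% of all genes, and below Touch in 0, against 15.2%. Of all genes called from Touch to Soft, 80.9% were lower, and 55.7% with equal medians. Touch below Pea and Soft above Touch were both called in 56 of the 80, against 0.269% of all genes. These calls use the values that chose the genes, so nothing is read from their number. The other 24 met the fold limit in the mean without both calls.

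The genes covered a wide range of levels. The highest of the 4 stage means was under 10 FPKM in 18 genes, 10 to 100 FPKM in 39 and over 100 FPKM in 23. Its median was 40.4 FPKM in the 80 genes and 14.7 FPKM over all 20833. At Touch the mean was under 1 FPKM in 21 genes, and in 11 of these no cultivar reached 1 FPKM. The median over the 80 genes of the stage mean was 12.9 FPKM at Pea, 2.85 FPKM at Touch, 23.5 FPKM at Soft and 22.6 FPKM at Harv. Over all genes kept, the same medians were 11.3, 11.1, 7.72 and 7.13 FPKM in the order of the stages.

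Both sides of the dip were of similar height in most genes. Pea and Soft lay within 1 of each other on the log2 scale in 49 of the 80 genes, Soft stood at least 1 above Pea in 22, and Pea stood at least 1 above Soft in 9. A dip of at least 4-fold on both sides was found in 11 genes. The rise to Soft was at least 4-fold in 41 genes and at least 16-fold in 8, while the drop to Touch was at least 4-fold in 20 and at least 16-fold in 2. In 25 genes all 5 values at Touch lay below all 5 values at Pea and all 5 at Soft. The values behind these counts chose the genes, so the counts are a description. The share of all genes without overlap was not counted.

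**Figure D2:**
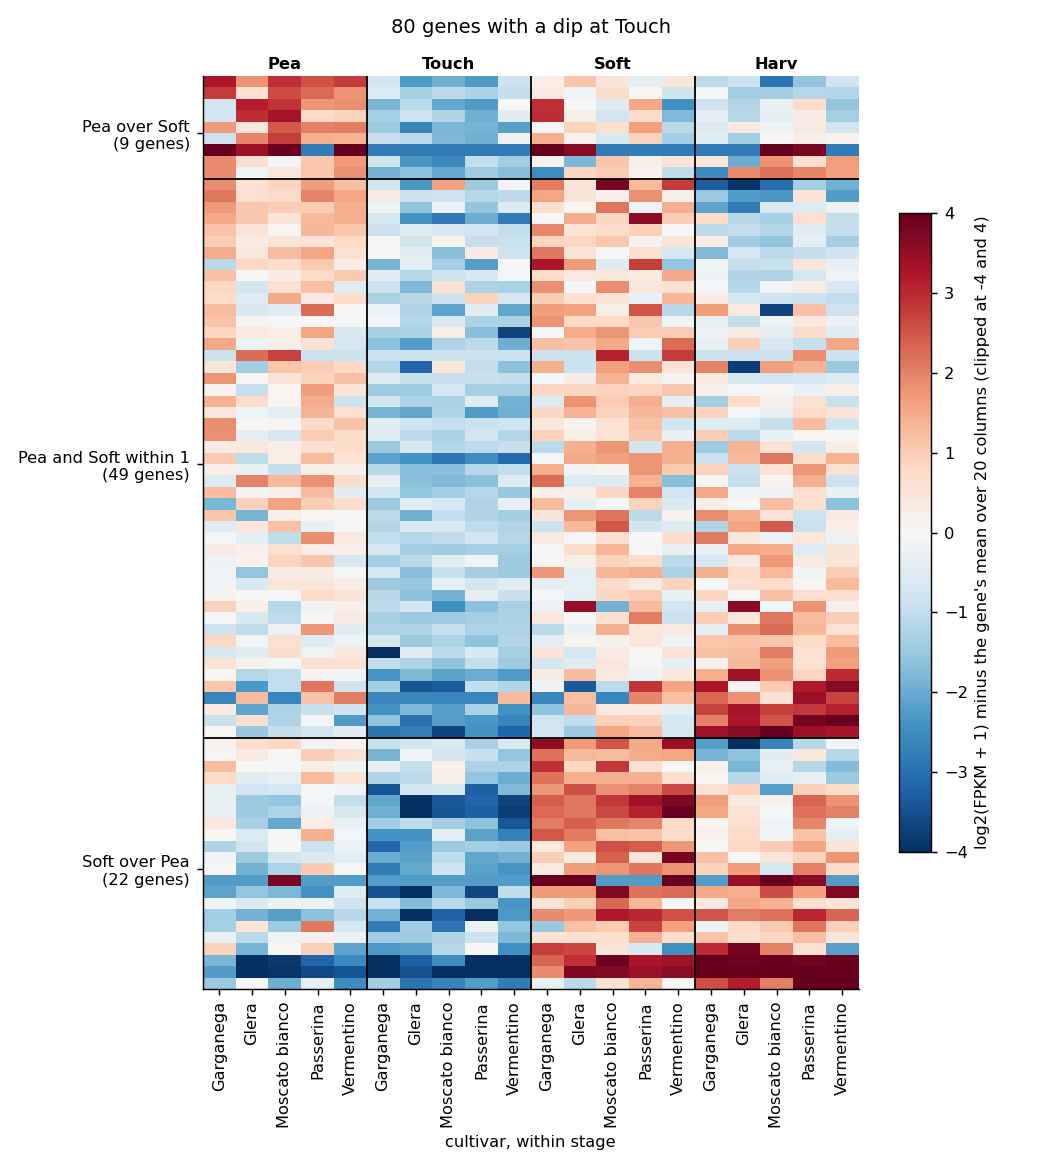
Rows are the 80 genes, in blocks by the relative height of Pea and Soft (9, 49 and 22 genes) and, within a block, by the change from Soft to Harv; columns are the 5 cultivars within each stage, and colour is log2(FPKM + 1) minus the gene's mean over the 20 columns. The Touch columns are mostly blue, and the Harv columns run from blue at the top to red at the bottom of each block, from a fall to a rise after Soft.

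The deepest dip among genes that met it in all 5 cultivars, with at least 10 FPKM at Pea and Soft, belonged to VIT_14s0108g00740. Its Pea values were 53.0 FPKM (Garganega), 11.8 FPKM (Glera), 30.5 FPKM (Moscato bianco), 61.2 FPKM (Passerina) and 37.3 FPKM (Vermentino). At Touch the values were 4.83, 3.83, 2.50, 3.60 and 2.00 FPKM in the same order of cultivars, so every cultivar was below its own value at Pea and the stages did not overlap. At Soft they were 24.2, 72.6, 79.7, 88.0 and 68.97 FPKM, and at Harv 13.4, 63.4, 111, 41.1 and 66.5 FPKM. The mean was 3.04 lower at Touch than at Pea on the log2 scale, and 3.88 higher at Soft than at Touch. From Soft to Harv it did not pass the test (log2 change -0.33, SE 0.51, adjusted p = 0.668), and the 5 values at Harv overlapped those at Soft.

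VIT_17s0000g09800, the second in that order, had a shallow and a steep side. It stood at 21.3 to 51.7 FPKM at Pea, at 2.60 FPKM (Glera) to 15.1 FPKM (Garganega) at Touch and at 262 to 943 FPKM at Soft, with 3 separate ranges. The mean of log2(FPKM + 1) was 2.53 lower at Touch than at Pea and 6.10 higher at Soft than at Touch. At Harv it stood between 56.2 FPKM in Moscato bianco and 275 FPKM in Passerina. It fell at Harv relative to Soft (log2 change -1.56, SE 0.36, adjusted p = 0.00420, lower in 5 of 5 cultivars) and was still 2.01 above Pea (SE 0.36, adjusted p = 0.000152, higher in 5 of 5).

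Only 7 genes met the dip in each of the 5 cultivars, against 0.0336% of all genes kept, and all 7 were among the 80, as the rule requires. Besides the pair above and VIT_17s0000g09810 they were VIT_12s0028g03120, VIT_14s0108g01020, VIT_14s0171g00100 and VIT_18s0164g00100. These names follow from that count and not from the rule for naming genes. VIT_14s0108g01020 was highest at Pea, at 402 ± 135 FPKM (SD, n = 5 cultivars). It stood at 20.9 ± 11.4 FPKM at Touch, 83.0 ± 30.3 FPKM at Soft and 24.02 ± 11.2 FPKM at Harv, where its range of 6.73 to 33.4 FPKM overlapped that at Touch, 11.4 to 33.7 FPKM. VIT_18s0164g00100 stood at 135 ± 55 FPKM at Pea, 8.57 ± 2.72 FPKM at Touch, 58.5 ± 37.7 FPKM at Soft and 34.1 ± 11.95 FPKM at Harv. VIT_12s0028g03120 stood at 17.2 ± 7.8 FPKM at Pea, 3.22 ± 2.22 FPKM at Touch, 11.9 ± 7.1 FPKM at Soft and 1.99 ± 3.27 FPKM at Harv. After Soft, VIT_14s0108g01020 and VIT_12s0028g03120 fell, each in 5 of 5 cultivars, with log2 changes of -1.85 (SE 0.38, adjusted p = 0.00179) and -2.43 (SE 0.36, adjusted p = 0.000179). The change in VIT_18s0164g00100 did not pass the test (-0.56, SE 0.40, adjusted p = 0.297).

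**Figure D3:**
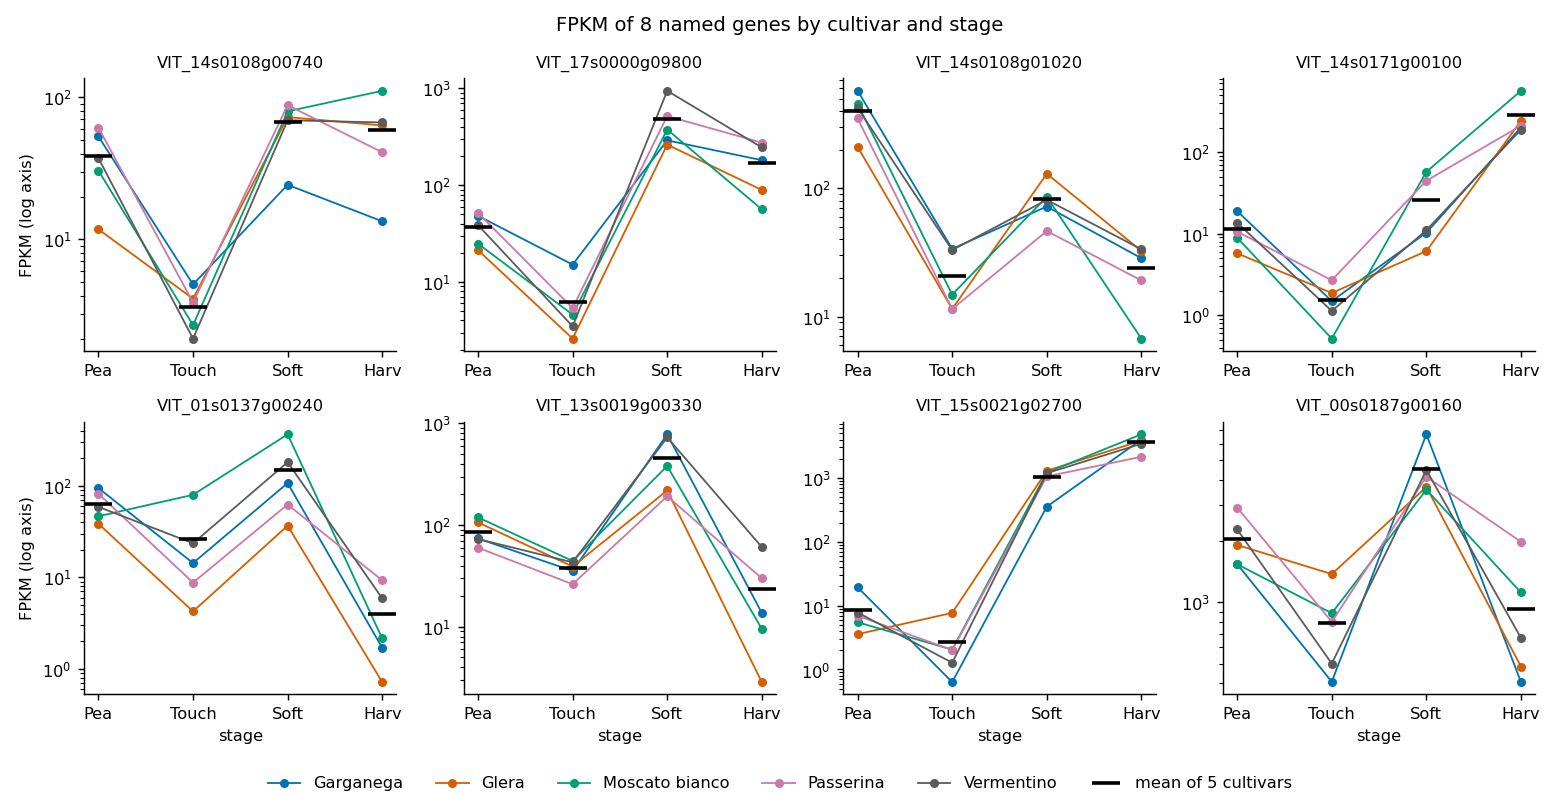
FPKM on a log axis against stage for 8 genes named in the text, with 1 coloured line per cultivar and a black bar at the mean of 5 cultivars. VIT_14s0108g00740 and VIT_17s0000g09800 dip in every cultivar, VIT_01s0137g00240 lacks the dip in Moscato bianco (46.5 FPKM at Pea, 79.7 FPKM at Touch), and VIT_15s0021g02700 lacks it in Glera (3.57 FPKM at Pea, 7.71 FPKM at Touch).

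The most abundant of the 80 genes, by the mean over the 20 columns, was VIT_00s0187g00160. Garganega had 1541.9 FPKM at Pea, Glera 1912 FPKM, Moscato bianco 1539 FPKM, Passerina 2919 FPKM and Vermentino 2279 FPKM. At Touch it stood at 407, 1376, 884, 801 and 499.9 FPKM in that order of cultivars, and at Soft at 6688, 3686, 3576, 4135 and 4463 FPKM. All 5 values at Touch were below all at Pea, but Glera and Moscato bianco lost less than 2-fold. At Harv the values were 405, 483, 1117, 1982 and 668 FPKM, below Soft in 5 of 5 cultivars (log2 change -2.49, SE 0.38, adjusted p = 0.000192). The level at Harv was also below that at Pea (log2 change -1.34, SE 0.38, adjusted p = 0.00486).

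Second in abundance was VIT_19s0090g01360, which stood at 77.3 to 298 FPKM at Pea and 22.1 to 205 FPKM at Touch, with overlapping ranges. In Moscato bianco it barely differed between these stages, with 120 FPKM at Pea and 119 FPKM at Touch. At Soft it reached 1363 FPKM in Garganega and in Glera, 5397.5 FPKM in Moscato bianco, 1877 FPKM in Passerina and 1987 FPKM in Vermentino. At Harv it stood at 1138 to 5376 FPKM, above Pea (log2 change 3.86, SE 0.36, adjusted p = 1.86e-07, higher in 5 of 5 cultivars). The gene left out for its 0, VIT_19s0090g01340, carries a near identifier. It was listed at 0 in Glera and Passerina at Harv, where the others stood at 7145 to 27804 FPKM.

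The cultivars shared the dip unevenly. It was met in 4 of them by 22 genes, in 3 by 30, in 2 by 14, in 1 by 6 and in none by 1. Pea and Soft were both above Touch, by any amount, in all 5 cultivars for 54 of the 80 genes. Passerina met the dip in 63 genes, Garganega in 48, Glera in 46, and Moscato bianco and Vermentino in 45 each. Over all genes kept, a dip of that size was found in 0.749% in Passerina, 0.576% in Garganega, 0.394% in Glera, 0.562% in Moscato bianco and 0.706% in Vermentino. These values chose the genes, so the counts are a description.

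The side on which the dip fell short differed between cultivars. In Glera and Moscato bianco Soft was at least 2-fold above Touch in 71 and 72 of the 80 genes, but Pea was at least 2-fold above Touch in 51 genes each. In Vermentino and Garganega the Pea side was met in 64 and 62 genes and the Soft side in 56 and 59. Passerina met the Pea side in 71 and the Soft side in 65. The Pea value is itself part of the Pea side. Glera had the lowest Pea value of the 5 cultivars in 35 genes and Moscato bianco in 19, against 10 in Vermentino, 9 in Garganega and 4 in Passerina. At Soft the lowest value was in Vermentino in 26 genes, in Garganega in 22, in Glera in 16, in Passerina in 10 and in Moscato bianco in 2. At Touch the lowest value was spread more evenly, from 12 genes in Garganega and in Passerina to 21 in Glera. Over all genes kept, the median of Pea minus Touch was -0.02 (Passerina) to 0.0 (Garganega) on the log2 scale. That of Soft minus Touch was -0.35 (Passerina) to -0.27 (Garganega). The counts of this paragraph were not taken over all genes, and they use values that chose the genes. No difference between cultivars could be tested, with 1 value per cultivar and stage.

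**Figure D4:**
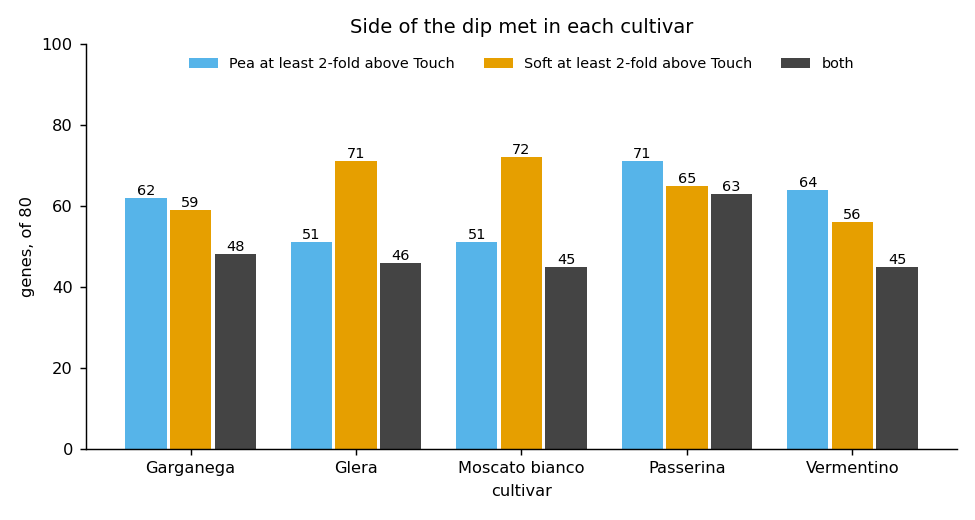
For each cultivar the bars give the number of the 80 genes with Pea at least 2-fold above Touch, with Soft at least 2-fold above Touch, and with both. Glera and Moscato bianco are lower on the Pea side (51 genes each) than on the Soft side (71 and 72), and Passerina has the most genes with both (63).

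The most frequent sets of cultivars with the dip were Garganega, Passerina and Vermentino, with 9 genes, and all but Moscato bianco, with 7. Glera, Moscato bianco and Passerina formed the set in another 7 genes. VIT_02s0012g00500 belonged to the first set. Garganega had 17.2 FPKM at Pea, Glera 2.81 FPKM, Moscato bianco 3.52 FPKM, Passerina 6.04 FPKM and Vermentino 9.61 FPKM. At Touch the values were 0.344, 5.65, 10.5, 1.37 and 0.444 FPKM in the same order, so it was higher at Touch than at Pea in Glera and Moscato bianco. At Soft it stood at 320 to 949 FPKM and at Harv at 923 to 1622 FPKM in all cultivars.

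Among genes with a mean of at least 10 FPKM at Pea and at Soft, the unevenness was largest, by the SD over cultivars of the dip depth (the smaller of both differences), in VIT_14s0066g00570 and VIT_04s0008g01570. VIT_14s0066g00570 was listed at 0 in all 5 columns at Touch. At Pea Garganega had 341 FPKM, Glera 73.4 FPKM, Moscato bianco 106 FPKM and Vermentino 180 FPKM, with a 0 listed for Passerina. At Soft Garganega had 135 FPKM and Glera 86.9 FPKM, with a 0 listed for the other 3 cultivars. At Harv Moscato bianco had 138 FPKM and Passerina 95.5 FPKM, with a 0 listed for the rest. VIT_04s0008g01570 had no value at 0. Its Pea values were 4.57 FPKM (Garganega), 83.5 FPKM (Glera), 69.4 FPKM (Moscato bianco), 31.1 FPKM (Passerina) and 33.6 FPKM (Vermentino), and its Soft values 71.8, 8.42, 5.62, 27.1 and 0.781 FPKM in that order. Garganega was lowest at Pea and highest at Soft, and Vermentino lay below its own Touch value (8.45 FPKM) at Soft.

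Values listed at 0 occurred in 9 of the 80 genes, and a 0 in such a table can be a failed estimate. In 5 of the 9 every 0 lay at Touch, with 1 to 4 such columns. VIT_14s0066g00570, VIT_17s0000g04800 and VIT_18s0122g00540 were listed at 0 in all 5 Touch columns and in 12, 15 and 13 of the 20 columns. VIT_18s0122g00540 met the dip in 0 cultivars: its only Pea value above 0 was 63.9 FPKM in Moscato bianco, and at Soft Garganega had 120 FPKM, Glera 98.6 FPKM and Vermentino 103 FPKM, with a 0 listed for the others. VIT_17s0000g04800 met it only in Moscato bianco, with 10.8 FPKM at Pea and 14.6 FPKM at Soft. VIT_08s0007g05290 was listed at 0 in 8 columns, of which 4 were at Touch. The other 71 genes had no value at 0.

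Whether the dip held in a cultivar that had no part in the choice was read by choosing genes on 4 cultivars and looking at the fifth. In Passerina 51 of the 78 genes chosen on the other cultivars met the dip (65.4%), against 0.749% of all 20833 genes. In Glera 43 of 91 did (47.3%, against 0.394%), in Garganega 36 of 77 (46.8%, against 0.576%), in Vermentino 39 of 85 (45.9%, against 0.706%) and in Moscato bianco 36 of 89 (40.4%, against 0.562%). Both Pea and Soft stood above Touch, by any amount, in 74.2% (Moscato bianco) to 84.6% (Passerina) of the chosen genes, against 10.8% (Glera) to 15.5% (Garganega) of all genes. In Moscato bianco the chosen genes had a median of 0.86 for Pea minus Touch and 2.16 for Soft minus Touch on the log2 scale. In Garganega the medians were 1.61 and 1.35. The turns share cultivars and are not independent of each other, and all cultivars share vineyard and season. They have no test.

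Harvest was outside the choice of the genes, but Touch and Soft, with which it is compared here, took part in it. At Harv 53 of the 80 genes stood at least 1 above Touch on the log2 scale, 25 lay within 1 of it and 2 lay at least 1 below. Relative to Soft, Harv was at least 1 lower in 26 genes, within 1 in 41 and at least 1 higher in 13. The median change from Soft to Harv was -0.56 in the 80 genes, against -0.02 over all genes tested. From Touch to Harv it was 1.81, against -0.33. The rule required Touch to be low beside Soft, so these values are a description. The counts were not taken over all genes.

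In the test of Harv against Soft, 22 of the 80 genes fell and 10 rose. That is 27.5% falling, against 5.15% of all 20833 genes, and 12.5% rising, against 2.05%. Of the 22 that fell 21 were lower in all 5 cultivars, and all 10 that rose were higher in all 5. A call with cultivars as replicates itself favours one direction in all 5, and the share among all called genes was not counted. The median log2 change was -1.70 in the genes that fell and 2.32 in those that rose. The Soft columns took part in the choice, so these counts are not independent of it. Under a test against a 2-fold change 3 of the 80 genes fell and 1 rose, against 138 falling and 29 rising of all 20833 genes.

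The same step was therefore read in cultivars that had no part in the choice, a reading added after the data were seen. Among genes chosen on the other 4 cultivars, Harv was at least 2-fold below Soft in 43.8% in Moscato bianco, 39.6% in Glera, 31.8% in Vermentino, 28.2% in Passerina and 27.3% in Garganega. Over all genes these shares were 8.03%, 8.62%, 8.78%, 2.73% and 7.48% in the same order. Harv was at least 2-fold above Soft in 24.7% in Vermentino, 21.3% in Moscato bianco, 16.9% in Garganega, 16.5% in Glera and 12.8% in Passerina, against 5.01%, 3.75%, 4.08%, 3.32% and 1.66% of all genes. Changes in both directions were thus more frequent than over all genes in each of the 5 cultivars. As the turns share cultivars, they are not independent. The shares have no test, and the genes compared were not matched for level.

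**Figure D5:**
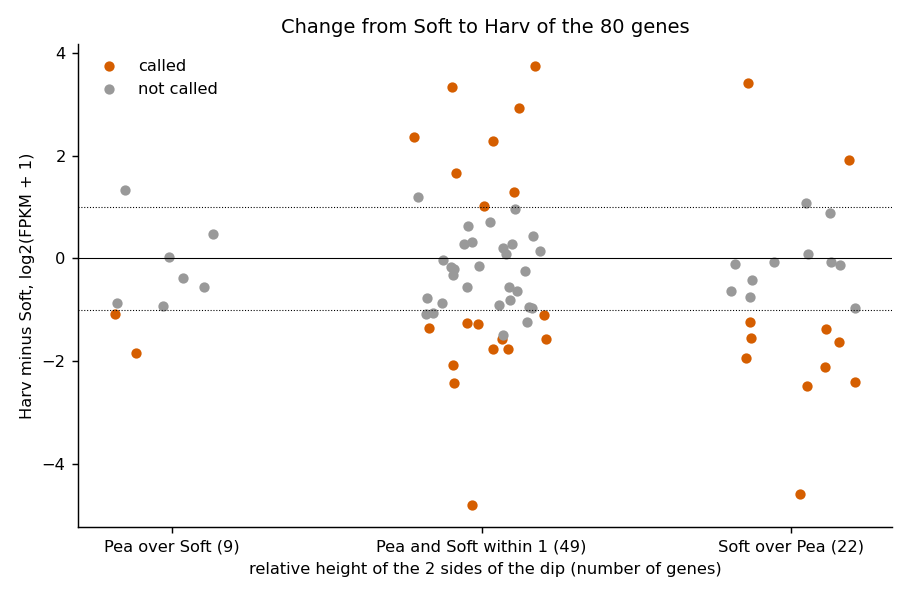
Each point is 1 of the 80 genes, in columns by the relative height of Pea and Soft; the y axis is Harv minus Soft on log2(FPKM + 1) from the limma fit, orange points passed the test and dotted lines mark a 2-fold change. Falls reach -4.80 and rises 3.75, and the block with Pea over Soft holds 2 falls and 0 rises.

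Falls occurred in all 3 kinds of dip, and rises in 2 of them. Where Soft stood over Pea, 9 of 22 genes fell at Harv and 2 rose. Where Pea and Soft were within 1, 11 of 49 fell and 8 rose. Where Pea stood over Soft, 2 of 9 fell and 0 rose. Soft is high by definition in the first kind, so these counts are a description. They were not taken over all genes.

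VIT_14s0171g00100 rose most from Soft to Harv. Garganega had 201 FPKM at Harv, Glera 242 FPKM, Moscato bianco 566 FPKM, Passerina 211 FPKM and Vermentino 189 FPKM, against 10.3, 6.11, 57.4, 44.6 and 11.0 FPKM at Soft. The values at Harv lay above all those at Soft (log2 change 3.75, SE 0.49, adjusted p = 6.69e-05). At Touch its highest value was 2.68 FPKM, below its lowest at Pea, 5.74 FPKM, and Soft did not overlap Touch either. VIT_05s0077g01550 stood at 54.5, 80.9, 36.2, 215 and 395 FPKM at Harv in the same order of cultivars, against 6.52, 3.38, 12.9, 22.7 and 8.45 FPKM at Soft (log2 change 3.42, SE 0.61, adjusted p = 0.000658, higher in 5 of 5). Its dip was met in Glera and Passerina only, and in Garganega it was not below Pea at Touch, with 2.31 FPKM at Pea and 2.58 FPKM at Touch. Against a 2-fold change its adjusted p was 0.0716.

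VIT_01s0137g00240 fell most. Its Harv values were 1.70 FPKM (Garganega), 0.716 FPKM (Glera), 2.15 FPKM (Moscato bianco), 9.27 FPKM (Passerina) and 5.89 FPKM (Vermentino), against 107, 36.7, 365, 62.4 and 181 FPKM at Soft (log2 change -4.80, SE 0.55, adjusted p = 2.79e-05). It also fell relative to Pea, where it had 94.4, 38.5, 46.5, 81.8 and 58.9 FPKM (log2 change -3.94, SE 0.55, adjusted p = 1.17e-05). Harv did not overlap either stage. At Touch it stood at 4.24 to 79.7 FPKM, with the highest value in Moscato bianco, the only cultivar in which it was higher at Touch than at Pea. VIT_13s0019g00330 fell at Harv relative to Soft (log2 change -4.59, SE 0.53, adjusted p = 2.87e-05). It stood at 2.85 FPKM (Glera) to 60.9 FPKM (Vermentino) at Harv, against 192 FPKM (Passerina) to 781 FPKM (Garganega) at Soft. Its drop to Touch was even, with 59.9 to 119 FPKM at Pea and 26.2 to 44.3 FPKM at Touch.

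Relative to Pea, 23 of the 80 genes were higher at Harv and 21 lower. That is 28.8% higher, against 7.3% of all genes tested, and 26.2% lower, against 27% of all genes. The Pea columns took part in the choice, so these counts are not independent of it. Of these, 21 of the 23 and 18 of the 21 had the same direction in all 5 cultivars, which a call itself favours. Under a test against a 2-fold change 12 of the 80 were higher and 9 lower, against 838 higher and 3720 lower of all 20833 genes. The median change was 0.06 in the 80 genes and -0.34 over all genes. The values over all genes depend on the scale of the columns: with columns scaled to equal medians their median was 0.17, and 49.7% of called genes were lower in place of 78.7%. Of the 104 genes chosen with equal medians 26% were called higher, against 18% of all genes, and 24% lower, against 17.8%. How far the shares stood from those of all genes thus differed between the scales. Among called genes with the dip, 47.7% were lower on the deposited scale and 48.1% with equal medians. Harv lay below both Soft and Pea by call in 15 of the 80 genes (18.8%, against 4.44% of all genes) and above both in 8 (10%, against 1.55%). Soft and Pea both took part in the choice, as above.

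This step was also read in cultivars that had no part in the choice, on the deposited scale and again as a reading added after the data were seen. Harv was at least 2-fold above Pea in 48.4% of the chosen genes in Glera, 42.7% in Moscato bianco, 29.5% in Passerina, 25.9% in Vermentino and 23.4% in Garganega, against 8.08% (Garganega) to 8.95% (Vermentino) of all genes. It was at least 2-fold below Pea in 35.1% in Garganega, 32.9% in Vermentino, 26.4% in Glera, 25.6% in Passerina and 23.6% in Moscato bianco, against 28.3%, 28.1%, 27.3%, 27.1% and 28.5% of all genes in the same order. These shares of lower genes lay close to those of all genes, on either side of them, so no difference is read from them. Harv lay at least 2-fold below both Soft and Pea in 14.3% (Garganega) to 23.1% (Glera) of the chosen genes, against 1.96% (Passerina) to 7.44% (Glera) of all genes. It lay at least 2-fold above both in 8.97% (Passerina) to 19.1% (Moscato bianco), against 1.12% (Passerina) to 3.47% (Vermentino). These shares have no test, and the genes compared were not matched for level.

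The largest rises relative to Pea were in VIT_15s0021g02700 and VIT_02s0012g00500. For VIT_15s0021g02700, Garganega had 3997 FPKM at Harv, Glera 3840 FPKM, Moscato bianco 4823 FPKM, Passerina 2144 FPKM and Vermentino 3427 FPKM, against 19.4, 3.57, 5.49, 6.96 and 7.80 FPKM at Pea (log2 change 8.71, SE 0.48, adjusted p = 7.31e-10). Its Touch values were 0.634, 7.71, 2.05, 2.01 and 1.28 FPKM, and at Soft it had reached 355 FPKM in Garganega and 1057 to 1294 FPKM elsewhere. Its dip was thus small in FPKM beside the later rise. VIT_02s0012g00500 rose by 7.34 relative to Pea (SE 0.56, adjusted p = 1.92e-08, higher in 5 of 5 cultivars). The largest fall relative to Pea was in VIT_14s0108g01020 (log2 change -4.11, SE 0.38, adjusted p = 1.57e-07, lower in 5 of 5), followed by VIT_01s0137g00240.

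The 80 genes were spread over the genome as far as identifiers show it. Grapevine identifiers of this form give the chromosome in their first digits. Members lay on 18 of the 19 chromosomes, 8 were unplaced, and the most on a chromosome was 7, on 4 and on 5. On chromosome 16 there was none, where 3.81% of all genes kept lie. Identifiers within 50 of each other on a scaffold, a distance chosen after the data were seen, formed 4 groups with 10 of the 80 genes.

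The largest group held VIT_04s0008g01490, VIT_04s0008g01500, VIT_04s0008g01550 and VIT_04s0008g01570, in a span with 8 genes kept. Over the 20 columns their log2(FPKM + 1) correlated pairwise with Pearson's r of 0.859 to 0.961, a description over columns that share libraries. All 4 shared the pattern of cultivars described for VIT_04s0008g01570. For VIT_04s0008g01490, the most abundant, Garganega had 38.3 FPKM at Pea, Glera 274 FPKM, Moscato bianco 475 FPKM, Passerina 192 FPKM and Vermentino 183 FPKM. At Soft it stood at 190, 78.0, 44.1, 131 and 26.5 FPKM in that order, so Garganega was again lowest at Pea and highest at Soft. At Touch it stood at 17.5 to 59.8 FPKM, with Vermentino the highest and again above its own Soft value.

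The other groups were pairs. VIT_17s0000g09800 and VIT_17s0000g09810 had nearly equal values in every column, with a ratio of the second to the first between 0.749 and 1.17 and r = 0.997. Near-identical copies can share fragments, and the values of such a pair are uncertain for that reason. VIT_05s0077g01550 and VIT_05s0077g01560 correlated with r = 0.981, and VIT_05s0077g01560 also rose at Harv, at 43.6 to 234 FPKM against 4.58 to 20.5 FPKM at Soft (log2 change 3.34, SE 0.57, adjusted p = 0.000453, higher in 5 of 5 cultivars). VIT_06s0009g01410 and VIT_06s0009g01420 had r = 0.839. At Soft they were highest in Moscato bianco, at 50.5 and 35.8 FPKM, and next in Glera, at 32.9 and 15.4 FPKM.

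Close to the limit of the rule, VIT_18s0001g10160 was just inside, with Pea 1.001 and Soft 2.16 above Touch, and VIT_07s0005g00120 followed with 1.01 and 1.15. VIT_07s0005g00120 stood at 15.9 ± 4.8 FPKM at Pea, 7.60 ± 3.11 FPKM at Touch and 18.2 ± 7.5 FPKM at Soft. Just outside lay VIT_07s0104g00180, at 1.59 ± 1.25 FPKM at Pea, 0.211 ± 0.139 FPKM at Touch and 1.62 ± 1.34 FPKM at Soft, and VIT_12s0034g01290. The last was listed at 0 in 16 of its 20 columns.

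Outside the 80, the genes whose 20 values followed the mean standardized course of the set most closely were VIT_02s0025g02420 (Pearson's r = 0.887 over 20 columns) and VIT_02s0025g04580 (r = 0.872). Their dips were shallow and even. VIT_02s0025g02420 stood at 50.5 ± 7.5 FPKM at Pea, 35.4 ± 3.5 FPKM at Touch, 71.7 ± 13.9 FPKM at Soft and 58.5 ± 7.2 FPKM at Harv. VIT_02s0025g04580 stood at 289 ± 34 FPKM at Pea, 180 ± 25 FPKM at Touch, 306 ± 50 FPKM at Soft and 293 ± 50 FPKM at Harv. In both genes Touch was below Pea and below Soft in all 5 cultivars, but by less than 1 in the mean of log2(FPKM + 1). VIT_02s0025g02420 was 0.49 below Pea and 0.98 below Soft on that scale, and VIT_02s0025g04580 0.68 and 0.76. They therefore did not meet the rule.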

How the data were processed

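The authors deposited 1 table of FPKM with 29287 rows and 20 columns. Per the file headers and name, each column is the mean of 1 group of libraries. The submitters' processing notes name Cufflinks 2.0.2 and TopHat2 2.0.6. Their genome build and gene annotation were not given in the sources used here. Libraries were non-directional per the labels' protocols, so overlapping and antisense genes cannot be told apart, and 608 rows join several identifiers, 2 of them among the 80 genes. Column names gave the group of each of the 20 columns.

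Values were taken as log2(FPKM + 1), which understates the change of low genes. Tests covered the 20833 genes that reached 1 FPKM in any column, among them all 80, as the rule requires. limma 3.58.1 in R 4.3.3 (moderated, with a trend) was fitted to all 20 columns with stage and cultivar as terms, leaving 12 residual degrees of freedom. The cultivar is the replicate, so p-values measure how evenly the cultivars changed, not the spread between libraries.

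The 80 genes, the classes and the tests were chosen with earlier results of these data known. Named genes are, by rule, pairs: the deepest and most uneven dips, the highest FPKM, the largest called changes to Harv from Soft and from Pea, those next to the limit, and the closest genes outside the set. Genes named for values at 0 or for neighbouring identifiers, and those listed as meeting the dip in all 5 cultivars, were chosen after their values were seen. Lists by gene product were not used, since identifiers had no names. Alternatives are given at the end. Sequences are not used here.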

Additional observations from a re-analysis of the deposited data

Results flagged for a closer look

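Of 66 sets of 5 cultivar values searched for 1 value far from the rest, 7 had such a value. At 1 in 20, about 3.3 would be found in sets not chosen on their values. VIT_14s0066g00570, among the 7, was named for its uneven dip, and the count of dips per cultivar rests on values that chose the genes. Nothing is therefore read from 7 against 3.3. Single genes were searched on the log2(FPKM + 1) scale. VIT_14s0108g00740 stood at 24.2 FPKM in Garganega at Soft, below the 68.97 to 88.0 FPKM of the other cultivars. VIT_15s0021g02700 was also low in Garganega at Soft, at 355 FPKM against 1057 to 1294 FPKM. VIT_19s0090g01360 stood at 5397.5 FPKM in Moscato bianco at Soft, above 1363 to 1987 FPKM. VIT_14s0171g00100 stood at 566 FPKM in Moscato bianco at Harv, above 189 to 242 FPKM. VIT_14s0066g00570 was listed at 0 in Passerina at Pea, against 73.4 to 341 FPKM.

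Passerina stood apart in how many of the 80 genes met the dip, with 63 against 45 to 48 in the other cultivars, a count from values that chose the genes. It also stood apart among genes chosen without it, of which 65.4% met the dip, against 40.4% to 47.3% in the turns of the other cultivars. Over all genes kept, too, Passerina had the highest share with such a dip, 0.749%, against 0.394% (Glera) to 0.706% (Vermentino). The cause was not tested.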

How the results depend on the processing

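The number of genes with the dip depended on the low end of the scale and on the limit. There were 197 with a pseudocount of 0.1, 33 with 5, 210 with a 1.5-fold limit and 11 with a 4-fold limit, against 80. It was 104 with columns scaled to equal medians and 97 with quantile normalization, of which 74 and 67 were among the 80. With 1 cultivar left out it was 77 to 91, with 65 to 76 of the 80. The dip in all 5 cultivars was met by 19 genes with a pseudocount of 0.1, 2 with 5, 11 with equal medians, 25 with the 1.5-fold and 0 with the 4-fold limit, against 7 (no test was involved).

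Calls from Soft to Harv among the genes chosen numbered 67 of 197 with a pseudocount of 0.1, 14 of 33 with 5, 60 of 210 with the 1.5-fold limit, 6 of 11 with the 4-fold limit and 4 of 80 in a test against a 2-fold change, against 32 of 80. From Pea to Harv they were 114, 18, 91, 6 and 21 in the same order, against 44. Of all 20833 genes, 9211 were called from Pea to Harv with a pseudocount of 0.1 and 4343 with 5. Against a 2-fold change it was 4558, and 7143 in the main setting. From Soft to Harv these counts over all genes were 2804, 663, 167 and 1501. Among the genes chosen with 1 cultivar left out the calls were 26 to 33 from Soft to Harv and 33 to 44 from Pea to Harv. Among the 71 genes with no value at 0, an alternative added after seeing the data, they were 31 and 41.

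Over all genes, calls with pseudocounts of 0.1 and 5 and in the test against a 2-fold change were 2534, 780 and 351 for Touch against Pea (main 1648) and 2804, 663 and 167 for Harv against Soft (1501). For Soft against Touch they were 2109 with a pseudocount of 5 and 1517 against a 2-fold change (3918), and for Harv against Pea 4343 and 4558 (7143). With 1 cultivar left out the counts were 1527 to 1696, 1300 to 1779, 3613 to 3960 and 7087 to 7175 for Touch against Pea, Harv against Soft, Soft against Touch and Harv against Pea. The other 102 values of counts and shares moved by less than 1.5 times, with calls counted in both directions together. By direction some moved more. With equal medians Soft was called above Touch in 1397 genes (main 748) and below it in 1760 (main 3170). Harv was called above Pea in 3759 genes (main 1521) and below it in 3714 (main 5622). The 8 named changes to Harv kept their direction in all 15 alternatives each and their call in 119 of 120, the exception being VIT_05s0077g01550 against a 2-fold change. Stages were compared within cultivars through the cultivar term. Without that term 27 of the 80 genes were called from Soft to Harv, against 1251 of all 20833 genes. From Pea to Harv 39 of the 80 were called, against 6966 of all genes. No paired analysis was possible because, beyond that term, the columns are means over libraries and carry no replicate number. Depth is unknown, so precision at low FPKM is unknown.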
